A study of Homo sapiens with 12 samples.

Results

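The 10 genes described here are the 8 subunits of the human condensins and the 2 type II topoisomerases, whose mRNA was measured in 22Rv1 cells, a human prostate cancer line, after depletion of CENPA, the histone H3 variant that marks centromeres. The members were taken by symbol from the deposited expression table, and all 10 were found among its 14828 genes. They are SMC2 and SMC4, shared by both condensins, then NCAPD2, NCAPG and NCAPH of condensin I, NCAPD3, NCAPG2 and NCAPH2 of condensin II, and the topoisomerases TOP2A and TOP2B. The cells carried a doxycycline-inducible lentiviral vector, selected with puromycin, for a nontargeting shRNA (shNT) or for a CENPA-targeted shRNA (shCENPA1 or shCENPA2), and all 3 groups received doxycycline at 2 µg/ml for 72 h. Each group had 2 RNA-seq libraries, and each library was run in 2 lanes, so that the mean of both lanes was 1 replicate and n = 2 libraries per group. The labels do not say that the libraries of a group were separate cultures. The p-values rest on the spread between libraries, which may be technical. The model also draws the spread of each gene towards that of genes at a similar level.

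Condensins are ring-shaped ATPases that fold chromatin into loops and compact chromosomes for mitosis. An SMC2-SMC4 heterodimer forms the ATPase core of both complexes, a kleisin (NCAPH or NCAPH2) closes the ring, and a pair of HEAT-repeat subunits (NCAPD2 with NCAPG, or NCAPD3 with NCAPG2) completes it. Condensin II is nuclear throughout the cell cycle, whereas condensin I reaches chromosomes after nuclear envelope breakdown. Type II topoisomerases pass a DNA duplex through a transient double-strand break, which removes the catenation between sister chromatids. TOP2A serves dividing cells and peaks in G2 and mitosis, and TOP2B is also made in cells that no longer divide.

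CENPA log2 RPKM (reads scaled to gene length and library size, on a log2 scale) was 2.32 ± 0.20 (SD, n = 2) with shNT, 0.54 ± 0.06 with shCENPA1 and -0.44 ± 0.05 with shCENPA2, so the targeted mRNA was low in the groups labelled as knockdown. Libraries held 79172294 to 133074655 reads on genes, and the 10 members rested on 1305 to 46169 reads per library, so that counting error was at most 2.77% of any value. The spread between libraries, not depth, therefore set the precision. Of 9 luminal prostate markers, all were in the table, with a summed level of 904 to 935 RPKM with shNT, 907 to 950 with shCENPA1 and 949 to 952 with shCENPA2, although KLK3, which encodes prostate-specific antigen, was low (log2 RPKM -0.48 with shNT). Of 14 markers of other cell types, 5 were in the table, with a summed level of 25.0 to 26.1 RPKM, 27.1 to 31.0 and 24.8 to 26.3 in the same order. Among the 5 markers, CHGA rose by 2.06 and 1.76 on the log2 scale with shCENPA1 and shCENPA2 from a log2 RPKM of -2.10. DCN rose by 1.93 and 1.48 from -3.05, and the part of CHGA and DCN in the results below was not tested.

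Depletion of CENPA was accompanied by lower mRNA of 8 of the 10 members with each shRNA, and none was higher. A gene passed when its adjusted p was under 0.05 (limma, Benjamini-Hochberg over 14624 genes), and it was called when it also had a log2 fold change above 1 or below -1. Over all genes tested, 4.45% passed as lower with shCENPA1 and 10.5% with shCENPA2. NCAPG, NCAPH, NCAPG2 and TOP2A were called lower with both shRNAs, which made 4 of 10 with shCENPA1, beside 1.83% of all genes, and SMC4 joined them with shCENPA2, which made 5 of 10, beside 4.45% of all genes. The median log2 fold change of the members was -0.86 with shCENPA1 and -0.91 with shCENPA2, against 0.00 and 0.01 over all genes tested. NCAPH2 and TOP2B were the 2 that did not pass. In 9 members every library of both shRNAs was below both shNT libraries, as it was in 20.5% of all genes tested. Both comparisons used the same shNT libraries, so their values are set side by side and do not support each other. In mRNA from a whole culture, fewer cells that express a gene and less RNA per cell cannot be told apart.

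**Figure D1:**
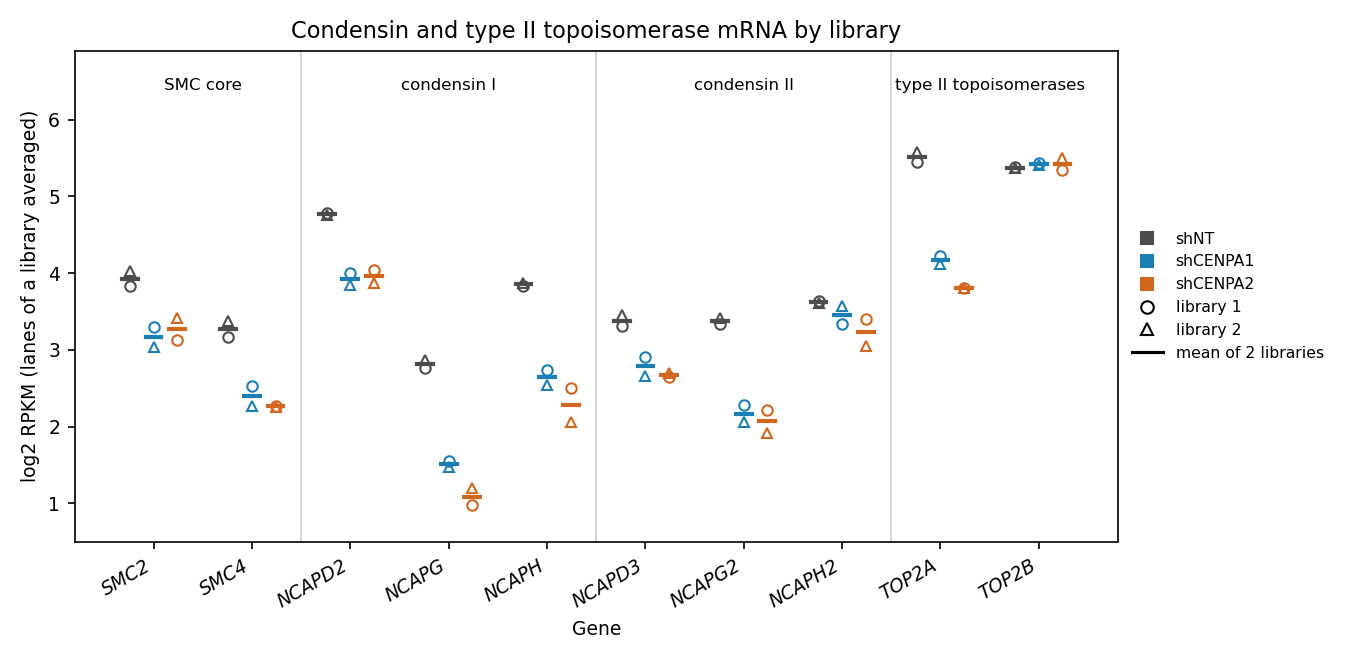
Levels of the 10 genes in each library, as log2 RPKM on the vertical axis, grouped by complex along the horizontal axis, with circles for library 1, triangles for library 2 and short lines for the mean of 2 libraries. In 9 of the 10 genes every shCENPA1 and shCENPA2 library sits below both shNT libraries, beside 20.5% of all genes tested, and all 6 libraries of TOP2B lie between 40.5 and 45.5 RPKM.

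The type II topoisomerases separated. TOP2A stood at 43.8 and 47.8 RPKM with shNT, 18.8 and 17.4 with shCENPA1, and 14.01 and 13.98 with shCENPA2, on 7454 to 30474 reads. No group overlapped another, and the shCENPA2 libraries were the lowest. Its log2 fold change was -1.34 (standard error, SE, 0.09, limma adjusted p = 9.21e-05) with shCENPA1 and -1.71 (SE 0.09, limma adjusted p = 6.67e-06) with shCENPA2, that is, it fell by 60.5% with the first and fell by 69.4% with the second. Counted from the lowest change, TOP2A ranked 98 of 14624 genes with shCENPA1 and 155 with shCENPA2.

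TOP2B, by contrast, stood at 41.7 and 41.3 RPKM with shNT, 43.1 and 42.6 with shCENPA1, and 40.5 and 45.5 with shCENPA2. Its shCENPA1 libraries were slightly above the shNT pair, and its shCENPA2 libraries lay on either side of it. Its log2 fold change was 0.05 with each shRNA (SE 0.09, limma adjusted p = 0.801 and 0.756), with a 95% confidence interval of -0.15 to 0.25 in each comparison. These intervals leave room for changes of -10.2% to 18.8% with shCENPA1 and -10.1% to 18.9% with shCENPA2, and the value with shCENPA2 was 0.13 without its first library and -0.04 without its second.

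The balance of the 2 enzymes shifted accordingly. TOP2A made up 52.4% ± 1.7 (SD, n = 2) of the summed TOP2A and TOP2B RPKM with shNT, 29.6% ± 1.0 with shCENPA1 and 24.6% ± 1.5 with shCENPA2. Their sum was 85.4 and 89.1 RPKM with shNT, 61.9 and 60.0 with shCENPA1, and 54.5 and 59.4 with shCENPA2. With 2 libraries against 2, the smallest two-sided p of an exact permutation test is 0.33, and these shares carry no test of their own.

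The promoters of both topoisomerase genes are shown because their mRNAs behaved differently in the same libraries. The windows run from 250 bases before to 50 bases after the RefSeq start (GRCh38.p14), and capitals mark matches on either strand to CCAAT, the letters bound by the factor NF-Y, or to TTTGAA or TTCGAA, the letters of the CHR element (cell cycle genes homology region) bound by complexes that time G2/M genes. TOP2A lies at chr17:40388525-40417896 on the minus strand and TOP2B at chr3:25597978-25664909 on the minus strand (GENCODE, GRCh38). The TOP2A window, chr17:40417847-40418146, and the TOP2B window, chr3:25664323-25664622, read on the minus strand as follows.
TOP2A: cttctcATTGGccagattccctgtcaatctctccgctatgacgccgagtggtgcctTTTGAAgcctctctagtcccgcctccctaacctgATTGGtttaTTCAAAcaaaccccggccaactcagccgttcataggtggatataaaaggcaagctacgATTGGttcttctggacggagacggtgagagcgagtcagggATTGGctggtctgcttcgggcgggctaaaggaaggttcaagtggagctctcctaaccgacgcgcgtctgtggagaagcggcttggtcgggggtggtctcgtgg
TOP2B: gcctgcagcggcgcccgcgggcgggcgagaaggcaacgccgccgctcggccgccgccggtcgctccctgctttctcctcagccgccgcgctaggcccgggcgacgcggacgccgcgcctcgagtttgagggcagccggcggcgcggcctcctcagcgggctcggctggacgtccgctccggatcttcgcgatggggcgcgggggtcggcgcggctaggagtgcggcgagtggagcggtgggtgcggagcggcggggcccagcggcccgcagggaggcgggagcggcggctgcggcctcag
TOP2A held 4 matches to CCAAT and 2 to TTTGAA, and TOP2B held none of either. The TOP2B window was 80.0% G or C and the TOP2A window 55.7%, so the base composition differs as well. Of 27305 RefSeq promoters of the same length, 35.7% held CCAAT, 15.4% TTTGAA, 1.45% TTCGAA and 6.58% CCAAT together with a CHR match.

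**Figure D2:**
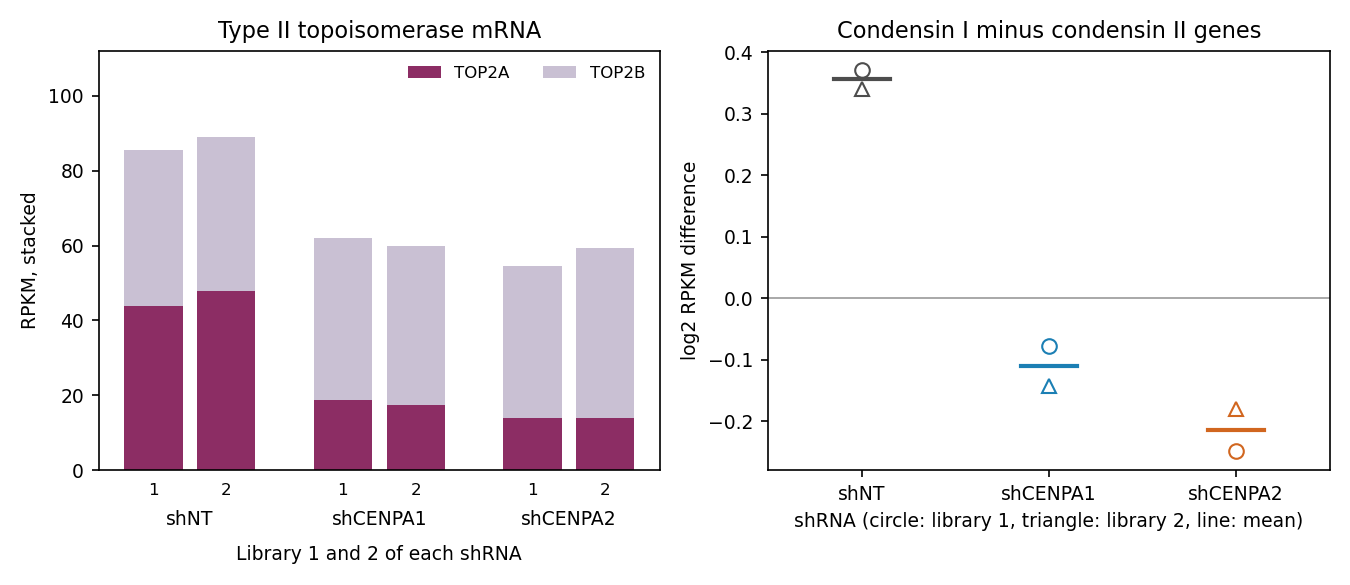
Left, RPKM of TOP2A and TOP2B stacked for each library; right, mean log2 RPKM of the 3 condensin I genes minus that of the 3 condensin II genes, with circles and triangles for libraries 1 and 2 and lines for their mean. The TOP2A part shrinks from 43.8 and 47.8 RPKM with shNT to 14.01 and 13.98 with shCENPA2 while TOP2B stays between 40.5 and 45.5, and the condensin difference goes from 0.36 to -0.11 and -0.21.

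Among the condensin I subunits all 3 passed as lower with both shRNAs, and NCAPG and NCAPH were called. NCAPG, a HEAT-repeat subunit, had the largest changes of the 8 condensin genes. It stood at 6.80 and 7.33 RPKM with shNT, 2.92 and 2.78 with shCENPA1, and 1.98 and 2.29 with shCENPA2. The groups did not overlap, and the order followed that of TOP2A. The log2 fold change of NCAPG was -1.31 (SE 0.13, limma adjusted p = 0.000473) with shCENPA1 and -1.73 (SE 0.13, limma adjusted p = 3.77e-05) with shCENPA2.

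NCAPH, the kleisin that links the SMC heads of condensin I, stood at 14.3 and 14.6 RPKM with shNT, 6.700 and 5.84 with shCENPA1, and 5.68 and 4.18 with shCENPA2. Every knockdown library was below both shNT libraries, and the shCENPA2 pair was spread more widely than the others. Its log2 fold change was -1.21 (SE 0.15, limma adjusted p = 0.00126) with shCENPA1 and -1.57 (SE 0.15, limma adjusted p = 0.000122) with shCENPA2. NCAPD2, the other HEAT-repeat subunit and the condensin gene with the most RPKM in every group, passed without reaching the fold threshold. It stood at 27.5 and 27.0 RPKM with shNT, 16.0 and 14.4 with shCENPA1, and 16.5 and 14.6 with shCENPA2. The 2 knockdown groups of NCAPD2 overlapped each other and lay well below shNT, with log2 fold changes of -0.85 (SE 0.10, limma adjusted p = 0.000968) with shCENPA1 and -0.81 (SE 0.10, limma adjusted p = 0.00053) with shCENPA2.

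The condensin I promoters differed in their matches, and they are shown for that reason. NCAPD2 (chr12:6493356-6531955, plus strand) held 4 matches to CCAAT and 1 to TTTGAA in its window, chr12:6493852-6494151. NCAPG (chr4:17810979-17844865, plus strand) held 1 match to TTTGAA in chr4:17810729-17811028, and NCAPH (chr2:96335766-96377091, plus strand) held 1 match to CCAAT in chr2:96335516-96335815.
NCAPD2: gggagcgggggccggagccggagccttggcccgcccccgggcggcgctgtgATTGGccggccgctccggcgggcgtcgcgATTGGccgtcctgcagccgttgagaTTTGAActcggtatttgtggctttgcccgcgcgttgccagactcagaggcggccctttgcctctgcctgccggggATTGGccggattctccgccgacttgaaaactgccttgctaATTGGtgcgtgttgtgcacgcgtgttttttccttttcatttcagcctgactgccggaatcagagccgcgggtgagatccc
NCAPG: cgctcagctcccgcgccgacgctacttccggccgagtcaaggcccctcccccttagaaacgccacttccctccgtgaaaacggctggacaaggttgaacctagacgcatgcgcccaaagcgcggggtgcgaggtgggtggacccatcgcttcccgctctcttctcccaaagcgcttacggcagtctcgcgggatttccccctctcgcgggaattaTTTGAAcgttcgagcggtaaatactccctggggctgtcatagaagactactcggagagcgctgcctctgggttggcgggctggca
NCAPH: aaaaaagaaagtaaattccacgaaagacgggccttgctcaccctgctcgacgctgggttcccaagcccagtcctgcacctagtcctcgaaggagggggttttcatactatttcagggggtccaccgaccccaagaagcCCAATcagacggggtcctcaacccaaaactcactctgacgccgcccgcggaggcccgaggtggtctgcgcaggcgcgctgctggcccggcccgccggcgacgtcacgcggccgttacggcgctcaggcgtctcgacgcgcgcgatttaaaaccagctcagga
A match is a description of letters in the window, and binding was not tested.

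The condensin II subunits spread apart. NCAPG2 (chr7:158631169-158704804, minus strand) was called with both shRNAs, NCAPD3 (chr11:134150113-134225504, minus strand) passed with both, and NCAPH2 (chr22:50508224-50524780, plus strand) passed with neither. NCAPG2, the HEAT-repeat counterpart of NCAPG, stood at 10.1 and 10.6 RPKM with shNT, 4.85 and 4.15 with shCENPA1, and 4.67 and 3.79 with shCENPA2. The knockdown groups overlapped each other and were far from shNT. Its log2 fold change was -1.21 (SE 0.14, limma adjusted p = 0.000829) with shCENPA1 and -1.30 (SE 0.14, limma adjusted p = 0.000221) with shCENPA2.

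NCAPD3, the other HEAT-repeat subunit of condensin II, stood at 9.88 and 10.96 RPKM with shNT, 7.48 and 6.35 with shCENPA1, and 6.28 and 6.51 with shCENPA2. All knockdown libraries were below the shNT pair by a smaller margin than in NCAPG2. The log2 fold change of NCAPD3 was -0.59 (SE 0.12, limma adjusted p = 0.0151) with shCENPA1 and -0.70 (SE 0.12, limma adjusted p = 0.00294) with shCENPA2. With shCENPA1 it did not pass without the second shNT library (-0.52, adjusted p = 0.179), without the second shCENPA1 library (-0.48, adjusted p = 0.109) or in limma without a trend in the variance (adjusted p = 0.0503).

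NCAPH2, the kleisin of condensin II, stood at 12.4 and 12.2 RPKM with shNT, 10.1 and 11.9 with shCENPA1, and 10.6 and 8.27 with shCENPA2. Every knockdown library was below both shNT libraries, but the second shCENPA1 library came within 0.3 RPKM of them. Its log2 fold change was -0.17 with shCENPA1 (95% confidence interval -0.47 to 0.14, limma adjusted p = 0.517) and -0.40 with shCENPA2 (95% confidence interval -0.70 to -0.09, adjusted p = 0.0723). The intervals are not adjusted for the number of genes tested, so an interval can exclude 0 where the adjusted p does not pass. The shCENPA2 value rested on single libraries, since it was -0.58 without the first shCENPA2 library (limma adjusted p = 0.0214) and -0.22 without the second (limma adjusted p = 0.274). With lanes counted as 4 replicates it passed (limma adjusted p = 0.00357), as it did with an estimated correlation of lanes (0.0342). The lanes read the same library again, so these settings add no libraries and their passes are no further evidence. With shCENPA1 it was -0.05 without the first shCENPA1 library and -0.29 without the second, and neither passed.

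The balance of the kleisins moved towards NCAPH2. The ratio of NCAPH to NCAPH2 RPKM was 1.15 and 1.19 with shNT, 0.66 and 0.49 with shCENPA1, and 0.54 and 0.51 with shCENPA2, with no overlap between shNT and either knockdown. On the lengths of canonical transcripts NCAPH was the lower of the pair in every library, with ratios of 0.66 and 0.69, 0.38 and 0.28, and 0.31 and 0.29. For the HEAT-repeat pairs the ratio of NCAPG to NCAPG2 was 0.68 and 0.69 with shNT, 0.60 and 0.67 with shCENPA1, and 0.42 and 0.60 with shCENPA2. The ratio of NCAPD2 to NCAPD3 was 2.78 and 2.46, 2.13 and 2.27, and 2.63 and 2.25 in the same order, so that the shCENPA2 values overlapped those of shNT. Averaged over 3 genes each, the log2 RPKM of condensin I minus that of condensin II was 0.36 ± 0.02 (SD, n = 2) with shNT, -0.11 ± 0.05 with shCENPA1 and -0.21 ± 0.05 with shCENPA2. This difference is a description over the members and has no p.

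SMC2 and SMC4, the ATPase subunits of both complexes, passed as lower with each shRNA. SMC2 (chr9:104094260-104141419, plus strand) stood at 14.2 and 16.3 RPKM with shNT, 9.86 and 8.21 with shCENPA1, and 8.74 and 10.7 with shCENPA2. The knockdown groups overlapped, and the libraries within a group differed more than for most members. Its log2 fold change was -0.76 (SE 0.14, limma adjusted p = 0.00954) with shCENPA1 and -0.66 (SE 0.14, limma adjusted p = 0.00928) with shCENPA2. Single libraries decided whether SMC2 passed. With shCENPA1 the pass was lost without the second shNT library (-0.66, adjusted p = 0.0613) or the second shCENPA1 library (-0.63, adjusted p = 0.12). With shCENPA2 the pass was lost without the second shNT library (-0.56, adjusted p = 0.0659) or the first shCENPA2 library (-0.51, adjusted p = 0.0529).

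SMC4 (chr3:160399274-160434954, plus strand) stood at 8.997 and 10.41 RPKM with shNT, 5.79 and 4.83 with shCENPA1, and 4.83 and 4.77 with shCENPA2. Its lowest shNT library was above every knockdown library. The log2 fold change was -0.87 (SE 0.13, limma adjusted p = 0.00327) with shCENPA1 and -1.01 (SE 0.13, limma adjusted p = 0.000635) with shCENPA2. The shCENPA2 value sits on the fold threshold, ranged from -1.12 to -0.88 over 20 alternatives, and was not called in 6 of them (0.1 or 1 added to RPKM, median-centred or quantile-normalized libraries, voom on recovered reads, and without the second shNT library), although it passed the adjusted p in every one. With shCENPA1 SMC4 was called without the first shCENPA1 library (-1.003). The SMC2 window held 1 match to TTTGAA across the start itself and the SMC4 window 1 match before it, neither with CCAAT.

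**Figure D3:**
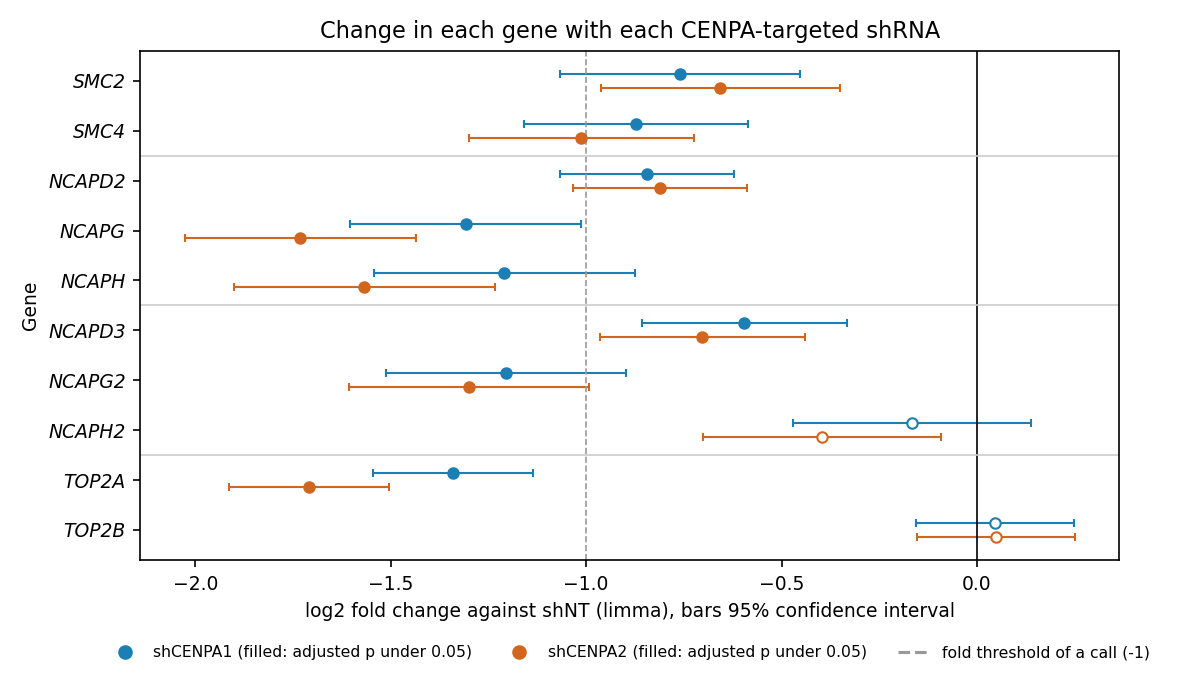
Log2 fold change against shNT for each gene with shCENPA1 (blue) and shCENPA2 (orange), with unadjusted 95% confidence intervals from limma, filled where the adjusted p was under 0.05. The intervals of TOP2B cross 0 with both shRNAs and that of NCAPH2 with shCENPA1, and those of NCAPG and TOP2A lie beyond -1 with both.

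Between the CENPA-targeted shRNAs no member passed in either direction with limma, beside 1.03% of all genes that passed as lower with shCENPA2 and 0.39% as higher. At an unadjusted p under 0.05, 3 members were lower with shCENPA2, namely NCAPG, NCAPH and TOP2A, beside 7.84% of all genes. The difference of shCENPA2 minus shCENPA1 was -0.37 for TOP2A (unadjusted 95% confidence interval -0.57 to -0.16, limma adjusted p = 0.104), -0.42 for NCAPG (-0.72 to -0.13, adjusted p = 0.19) and -0.36 for NCAPH (-0.69 to -0.03, adjusted p = 0.337). In these 3 genes both shCENPA2 libraries were below both shCENPA1 libraries, as in 20.2% of all genes tested, and in the other 7 the libraries of the shRNAs overlapped. The interval was -0.20 to 0.41 for SMC2 and -0.53 to 0.07 for NCAPH2, which leaves room for differences of that size. With lanes counted as 4 replicates TOP2A, NCAPG and NCAPH passed, and with an estimated correlation of lanes TOP2A alone did. Lanes of a library are not separate replicates, so these passes are no further evidence.

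On the lengths behind the deposited RPKM, the order of levels changed with depletion. With shNT, TOP2A led, followed by TOP2B and NCAPD2, then SMC2 and NCAPH, NCAPH2, NCAPD3, NCAPG2, SMC4 and last NCAPG. In that order the libraries of SMC2 and NCAPH overlapped, as did those of NCAPD3 with NCAPG2 and of NCAPG2 with SMC4. With shCENPA1 and shCENPA2 TOP2B led, and NCAPG remained the lowest. TOP2A ranked 2 with shCENPA1 and 3, after NCAPD2, with shCENPA2. NCAPH2 ranked 6 with shNT, 4 with shCENPA1 and 5 with shCENPA2, where it overlapped SMC2.

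Levels of different genes depend on the lengths behind the RPKM, which were recovered from the deposited values as whole numbers of bases. They were 13766 bases for SMC4, 11957 for NCAPD3 and 7993 for NCAPG, against 5116, 7369 and 4587 bases for the canonical GENCODE transcripts, and 3278 against 6030 bases for NCAPH. On canonical lengths the mean level of SMC4 with shNT was 26.1 RPKM and that of SMC2 was 16.7, so the order of these subunits turned, and NCAPH rather than NCAPG was the lowest member, at 7.86 RPKM. TOP2B then stood at 54.0 RPKM and TOP2A at 51.7 with shNT. TOP2A ranked 2 with shNT and 3, after NCAPD2, with both shRNAs, and NCAPH2 ranked 9 with shNT, 6 with shCENPA1 and 7 with shCENPA2. Changes of a single gene between groups do not depend on its length.

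Across the 9 members with a RefSeq promoter, 3 held CCAAT, 6 held TTTGAA and 2 held both, against 35.7% (CCAAT), 15.4% (TTTGAA) and 6.58% (CCAAT with either CHR motif) of all promoters. TTCGAA was found in none of the members. NCAPD3 and TOP2B held no match, and of these NCAPD3 passed as lower. NCAPG2 had its TTTGAA match 36 bases after the start. NCAPH2 was not in the promoter table.

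**Figure D4:**
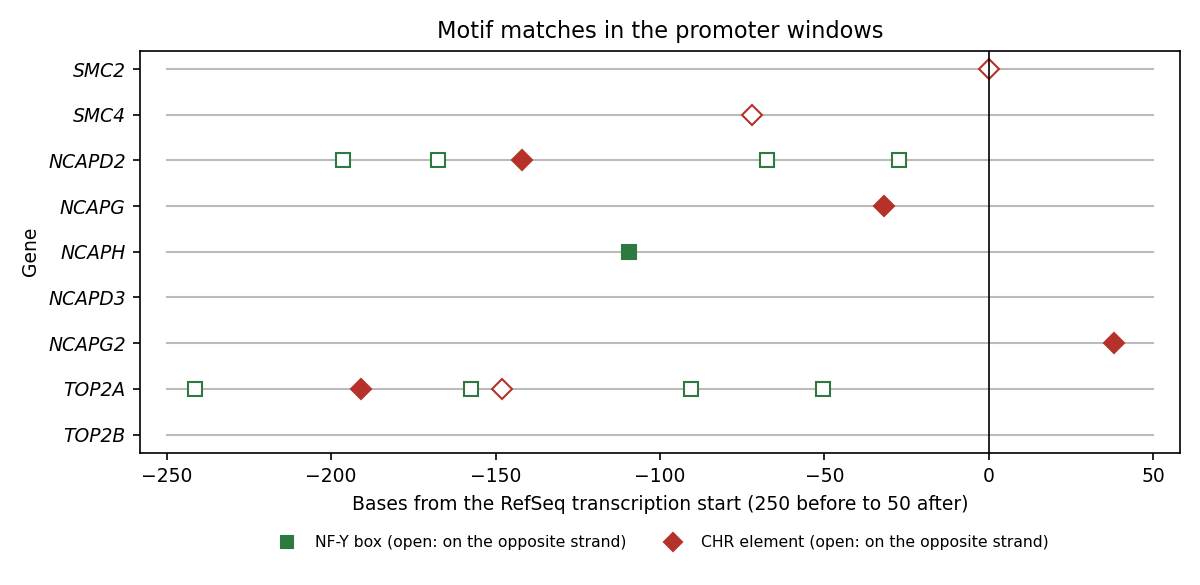
Positions of the matches in the promoter windows of 9 members, in bases from the RefSeq start on the horizontal axis, with squares for the NF-Y letters, diamonds for the CHR letters and open symbols for the opposite strand. TOP2A and NCAPD2 hold 4 squares each, and the lines of NCAPD3 and TOP2B are empty.

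Among the members, 4 have a neighbour on the opposite strand whose start lies within 1000 bases of their own. IFT80 starts 425 bases from SMC4, MRPL51 840 bases from NCAPD2 and DCAF16 222 bases from NCAPG, each pointing away, and the starts of VPS26B and NCAPD3 lie 790 bases apart with the genes overlapping. None of these neighbours passed. Their log2 fold changes with shCENPA1 and shCENPA2 were 0.04 and -0.20 for IFT80, 0.09 and 0.01 for MRPL51, -0.22 and -0.08 for DCAF16, and 0.15 and 0.19 for VPS26B (adjusted p from 0.242 to 0.975 from limma).

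The genes whose profile over the 6 libraries was nearest to that of TOP2A, by the root mean square difference of log2 RPKM after each gene's mean was removed, were KIF11 (0.053), a spindle motor, CENPF (0.060), a kinetochore protein, and CCNA2 (0.065), which encodes cyclin A2. For NCAPG they were TRIP13 (0.052), TMPRSS4 (0.060) and TOP2A (0.068). The nearest profiles to NCAPH2 were those of NFKB2, TMEM54 and DOK1 (0.028 to 0.036), and those nearest to TOP2B were EGLN1, RPL7L1 and TMED2 (0.010 to 0.014). These likenesses are descriptions over 6 libraries.

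Most genes on a list of condensin regulators, partners and other mitotic proteins also fell. Of these 16 genes, 10 passed as lower with each shRNA, beside 4.45% of all genes with shCENPA1 and 10.5% with shCENPA2. Of these, 9 were called, beside 1.83% and 4.45%, and their median change was -1.13 on the log2 scale with shCENPA1 and -1.40 with shCENPA2. ASPM, a spindle pole protein, changed by -1.57 and -1.67, MKI67, which coats mitotic chromosomes, by -1.40 and -1.66, AURKB, the kinase of the chromosomal passenger complex, by -1.24 and -1.75, and TTK, a spindle checkpoint kinase, by -1.34 and -1.58. The 6 that did not pass were the phosphatase subunits PPP1CA and PPP2R2A, the casein kinase subunit CSNK2A1, and SET, MCPH1 and AKAP8.

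Of 13 partners of the type II topoisomerases, TOPBP1, HMGB1, HMGB2 and CDC7 passed as lower with both shRNAs, and SUMO2 joined them with shCENPA2. That made 4 of 13 beside 4.45% of all genes, and 5 of 13 beside 10.5%. None was called, and the median was -0.08 and -0.11. These 5 were named after their values were seen. HMGB2, a chromatin protein of proliferating cells, changed by -0.45 with shCENPA1 and -0.97 with shCENPA2. TDP2, which repairs trapped TOP2 on DNA ends, and its partner ZNF451 did not pass.

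Of 8 other topoisomerases and partners, 3 passed as lower with both shRNAs, beside 4.45% and 10.5% of all genes. They were the helicase BLM (-1.25 and -1.77, called with both), RMI2 (-0.92 and -1.38) and RMI1 (-0.69 and -0.71), which with TOP3A form the complex that dissolves double Holliday junctions. The log2 fold changes of TOP3A itself were -0.11 and -0.34, those of TOP1 -0.05 and -0.14 and those of TOP3B 0.12 and 0.09, and none of these passed. Of 10 tested genes of the SMC5/6 complex and other SMC proteins, SLF1 (-0.86 and -0.997) and the cohesin ATPase SMC1A (-0.48 and -0.40) passed with both shRNAs and SMC3 with shCENPA2 (-0.39), that is, 2 of 10 and 3 of 10 beside the same 4.45% and 10.5%, and none was called. SMC5 and SMC6 did not pass. The medians were -0.17 and -0.34 for the topoisomerase list and -0.34 and -0.26 for the SMC list, and no gene of these 4 lists passed as higher.

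**Figure D5:**
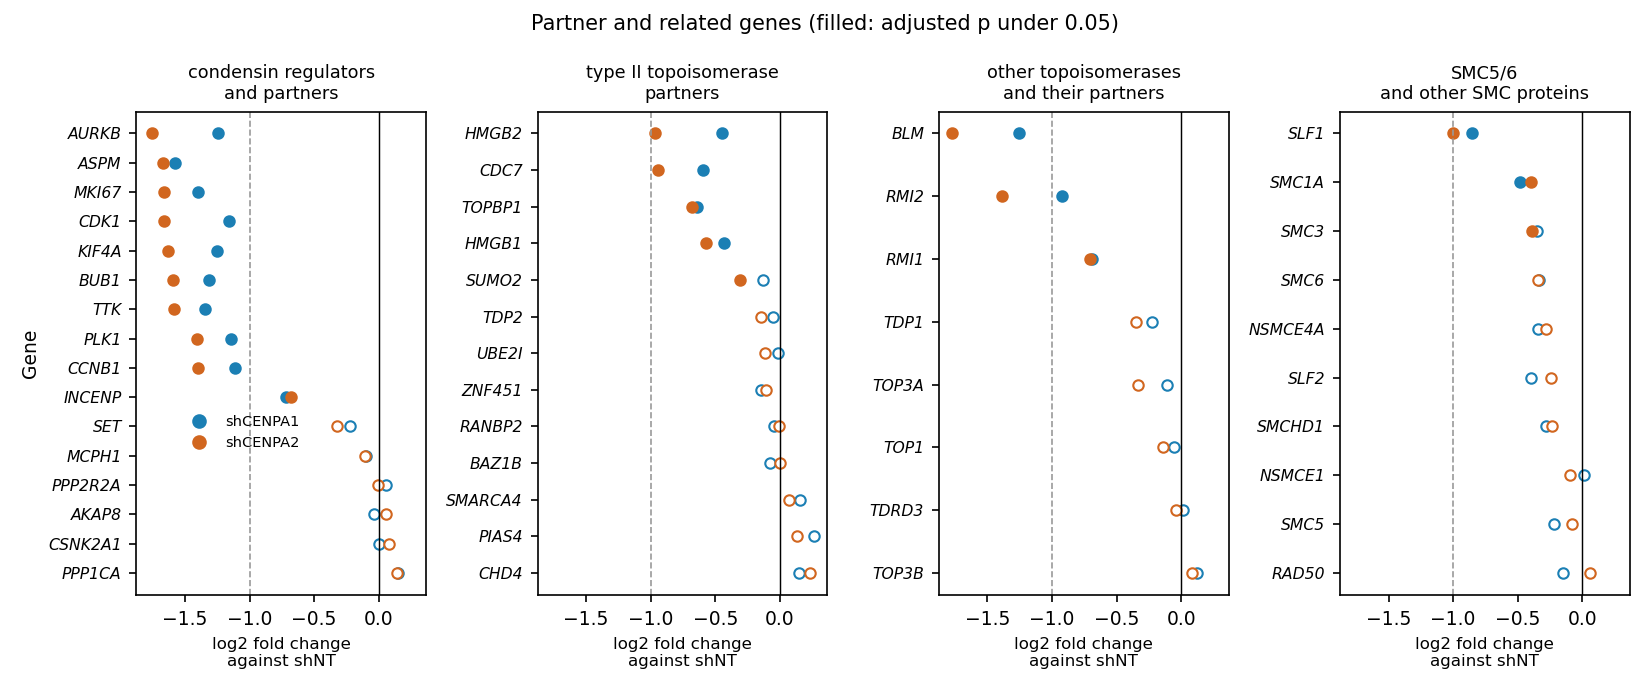
Log2 fold change against shNT with shCENPA1 (blue) and shCENPA2 (orange) for the genes of 4 lists, filled where the adjusted p was under 0.05, with a dashed line at the fold threshold of -1. On the list of condensin regulators and partners 9 of 16 genes lie beyond the line with both shRNAs, and of the type II topoisomerase partners none does.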

How the data were processed

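RNA-seq of 22Rv1 cells was measured in 12 runs, the 2 lanes of 6 libraries. The authors used Trim Galore for trimming, STAR for alignment to hg38, HTSeq for counting and edgeR for their calls. They deposited log2 RPKM with a small prior count, which draws the fold changes of weak genes towards 0. Versions are not given in the sources used here. The steps of the deposited log2 values gave whole reads and whole gene lengths for 14828 of 14828 genes (lengths within 0.05 bases of a whole number). Lanes were averaged. A joint model of all 3 groups was made with limma (version 3.58.1, R 4.3.3, lmFit and eBayes with trend) for the 14624 genes whose mean was -3 or more on the log2 RPKM scale. The fit was tested on simulated data. The members and gene lists were chosen with earlier results of these data known. Named by rule were all members, CENPA, list genes called with both shRNAs (at most 4 per list) or higher with both, the 3 nearest profiles and head-to-head neighbours within 1000 bases. Other list genes in the text, such as RMI1, RMI2, SLF1, SMC1A and SMC3, fall outside this rule and were named after their values were seen. Promoters are RefSeq sequences for 9 of 10 members. Protein sequences were not used here. Alternatives covered replicates, lanes, filters, added constants, scaling, the variance model, voom on the recovered reads and each library left out.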

Additional observations from a re-analysis of the deposited data

Results flagged for a closer look

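Only the members, CENPA and the listed genes were searched for differences between the CENPA-targeted shRNAs. Of these, CENPA, CDK1 and HMGB2 passed the test of that difference itself. Over all genes tested, 1.03% passed as lower with shCENPA2 and 0.39% as higher. The log2 difference of shCENPA2 minus shCENPA1 was -0.98 for CENPA (adjusted p = 0.0209 from limma), -0.50 for CDK1 (adjusted p = 0.0364), the mitotic kinase that phosphorylates condensin, and -0.52 for HMGB2 (adjusted p = 0.0268). No member of the condensins or type II topoisomerases passed that test.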

How the results depend on the processing

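Over 20 alternatives, 118 of 120 counts of members stayed within 1.5 times the reported count. The exceptions were the members that passed between the shRNAs, 3 with lanes as 4 replicates and 1 with an estimated correlation of lanes, against 0. Both of these settings use lanes, which are not separate replicates. With each library left out in turn, 4 to 5 members were called with shCENPA1 and 6 to 8 passed, and 4 to 5 were called with shCENPA2 and 7 to 8 passed. Several alternatives altered only the estimate of spread or the genes tested, or left out a library outside the comparison. In these the log2 fold change could not move, only the adjusted p. Of 600 changes of single members, 574 kept their direction and their side of the adjusted p threshold, 7 no longer passed, 7 newly passed and 12 changed sign. All 12 were differences near 0. Among those that kept their side, SMC4 crossed the fold threshold in 6 alternatives with shCENPA2 and in 1 with shCENPA1. For TOP2B the shRNA difference was -0.0082 in lane 7 and -0.0050 after quantile normalization.
With libraries left out, the range was -0.036 to 0.132 for TOP2B with shCENPA2, and between the shRNAs -0.042 to 0.249 for SMC2, -0.053 to 0.121 for NCAPD2, -0.227 to 0.011 for NCAPD3, -0.246 to 0.056 for NCAPG2 and -0.083 to 0.085 for TOP2B. Levels moved on canonical transcript lengths, an alternative added after seeing the data. Condensin I minus condensin II became 0.025, -0.44 and -0.55 for shNT, shCENPA1 and shCENPA2, the TOP2A share 48.9%, 26.8% and 22.1%, and the ratio of SMC2 to SMC4 0.64, 0.69 and 0.82, where the lengths in the table gave 1.57, 1.70 and 2.03. RPKM without the prior count moved none of these beyond the spread between libraries. The library number as a replicate block left 8 members passed and 4 called with shCENPA1 and 8 passed and 5 called with shCENPA2. Libraries of one number deviated from their group means with correlations over genes of -0.06, -0.10 and -0.15 between groups. No pairing by number was seen in these values, and a shared culture or preparation was not tested.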
